A study of Mus musculus with 12 samples.

Results

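β-cells were compared with non-β-cells from the islets of female NOD mice at 4 weeks of age, using RNA sequencing of the 2 sorted fractions. The comparison rests on 6 of the 12 samples of the series, 3 of β-cells (Beta_Week4) and 3 of non-β-cells (Nonbeta_Week4), and covers the 15598 of 52962 listed genes that passed 1 CPM (read counts scaled to a common library total) in at least 3 of the 12 samples. NOD is an inbred strain that develops autoimmune diabetes spontaneously, and the labels name no transgene, deletion or treatment in any sample. The other 6 samples, β- and non-β-cells at 8 weeks, were used to estimate the spread and to show where the 2 ages differed. Per the study's methods, cells were sorted by autofluorescence after CD45-positive leukocytes had been gated out, and each sample pooled several mice, a point that the labels leave out. The non-β fraction is thus whatever lay outside the β gate, not 1 purified cell type, and p-values measure only the spread between these samples.

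The islet holds several endocrine cell types. β-cells secrete insulin when the metabolism of glucose closes ATP-sensitive potassium channels, α-cells secrete glucagon, δ-cells somatostatin and PP cells pancreatic polypeptide. In mouse islets β-cells are the most numerous and α-cells the next, and both share a large part of the machinery for making, storing and releasing peptide hormones.

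Total estimated counts lay between 19098072 and 24018681 in the β-cell samples and between 20120599 and 25654117 in the non-β-cell samples. Values below are CPM scaled between libraries with TMM factors (trimmed mean of M-values), given for replicates 1, 2 and 3 in turn. Differences are log2 β minus non-β from limma-voom with its standard error (SE) and an adjusted p, and a gene is called higher or lower in β-cells where the adjusted p was under 0.05. At 4 weeks 7570 genes were called, 48.5% of those tested, of which 3878 (24.9% of those tested) were higher and 3692 (23.7%) lower in β-cells. With a difference of at least 2-fold asked for as well, 1266 (8.12%) were higher and 2198 (14.1%) lower, 22.2% in all. Beyond 16-fold, 134 genes were higher and 316 lower in β-cells, and the median over all genes was -4.94e-05. In a principal component analysis of the 6 samples the first component held 64.3% of the variance and separated the fractions. The second held 14.7%, and on it the replicate numbered 3 stood apart in both fractions, at -41.0 in β-cells against 21.9 and 28.9, and at -61.2 in non-β-cells against 3.17 and 48.2. Genes spanning over 100 kb of the genome were lower in both of these samples than in the other replicates of the same fraction. The median log2 was -0.44 for β-cell and -0.32 for non-β-cell replicate 3 over 1366 genes. Genes of up to 5 kb were higher (0.48 and 0.30 over 1150 genes). Only genes at a mean log2 CPM of at least 3 were used for these medians. Without both samples numbered 3, 7681 genes were called.

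The hormones marked the fractions as labelled. Ins2 stood at 28359, 24955 and 45577 CPM in β-cells and at 629, 409 and 667 in non-β-cells. Its log2 difference was 5.84 (SE 0.21, adjusted p = 4.55e-10). Ins1, the second mouse insulin gene, stood at 7429, 6390.1 and 12156 against 212, 146 and 250.4, a difference of 5.39 (SE 0.22, adjusted p = 1.24e-09). In both insulin genes every β-cell sample lay above every non-β-cell sample, an order found in 26.5% of all genes tested, with the opposite order in 26.7% (53.1% without overlap in all). Gcg, the glucagon gene, went the other way, from 5402, 6271 and 9039 CPM in β-cells to 102911, 105933 and 116865 in non-β-cells, a difference of -4.01 (SE 0.21, adjusted p = 1.15e-08). Reads of Ins1 and Ins2 could be divided between the 2 near-identical genes in the counting, so the level of each is less certain than that of both.

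Measured as a share of all counts, Ins2 took 3.32% ± 0.958 (SD, n = 3) of β-cell counts and 0.0574% ± 0.0138 of non-β-cell counts. Gcg took 11.0% ± 0.625 in non-β-cells and 0.696% ± 0.163 in β-cells, which made it the gene with the fifth largest share of the β fraction, after Ins2, Iapp at 1.74%, Ins1 at 0.870% and mt-Co1, a mitochondrial gene of the respiratory chain, at 0.708%. In non-β-cells Gcg was followed by the elongation factor Eef1a1 at 0.760%, Pcsk2 at 0.707%, Ppy at 0.609% and Sst at 0.534%. The 7 islet hormone genes Ins1, Ins2, Gcg, Sst, Ppy, Pyy and Iapp together took 5.52 to 8.80% of the counts in β-cells and 12.1 to 13.7% in non-β-cells. In sorted bulk samples, a fraction with fewer cells of a type and one with less RNA of that type per cell cannot be told apart.

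The promoters of Ins1 and Gcg are shown because these genes define the 2 fractions. Both are RefSeq sequences of GRCm38.p6, covering 250 bases before and 50 after the annotated start, with chr19:52264047-52264346 (plus strand) for Ins1 and chr2:62483604-62483903 (minus strand) for Gcg, each 5′ to 3′ along its gene. Capitals mark GCCATCTG, an E element of insulin promoters, and TAAT, the core letters bound by homeodomain factors, on either strand.
Ins1: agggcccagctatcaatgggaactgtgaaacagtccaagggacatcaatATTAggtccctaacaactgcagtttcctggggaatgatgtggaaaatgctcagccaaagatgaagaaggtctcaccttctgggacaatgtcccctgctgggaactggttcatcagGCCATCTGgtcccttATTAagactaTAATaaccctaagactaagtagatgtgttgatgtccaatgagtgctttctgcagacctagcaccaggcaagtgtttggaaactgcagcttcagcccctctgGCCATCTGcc
Gcg: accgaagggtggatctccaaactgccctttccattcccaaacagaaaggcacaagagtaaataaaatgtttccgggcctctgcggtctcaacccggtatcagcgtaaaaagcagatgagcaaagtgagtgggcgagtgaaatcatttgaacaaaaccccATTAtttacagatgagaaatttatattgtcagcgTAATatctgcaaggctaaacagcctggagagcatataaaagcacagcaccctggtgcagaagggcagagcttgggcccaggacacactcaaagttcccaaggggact
GCCATCTG occurred in 1.52% of the promoters of 27025 genes and in 1 of the 15 β-cell marker genes with an entry, Ins1. TAAT is frequent, in 61.4% of all genes' promoters, in 10 of those 15 and in 3 of the 6 α-cell marker genes with an entry.

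**Figure D1:**
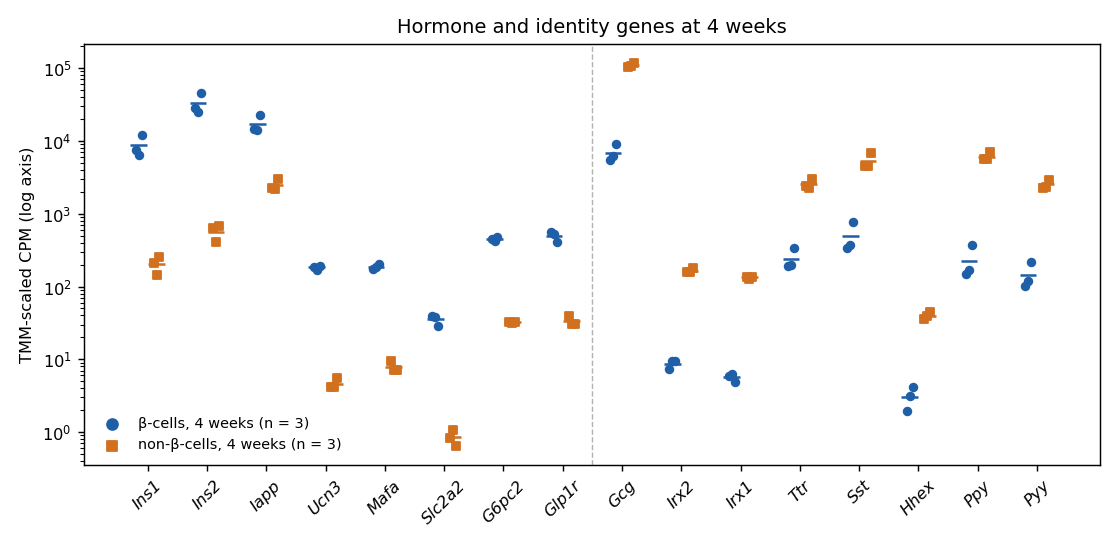
TMM-scaled CPM (log axis) of 16 hormone and identity genes in each 4-week sample, with β-cells as circles, non-β-cells as squares and group means as lines (n = 3 each). The 8 genes left of the dashed line lie higher in every β-cell sample and the 8 on the right higher in every non-β-cell sample.

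Of 20 β-cell markers, 18 were higher and 1 lower in β-cells (background 24.9% and 23.7%), with a median log2 difference of 3.84. The same shares, 48.5% called in all, are the background for the counts of every list below. Trpm5, a calcium-activated cation channel of the β-cell membrane, had a difference of 6.28, at 63.1, 49.2 and 72.4 CPM against 0.574, 0.979 and 0.838. Sytl4 (granuphilin), which docks insulin granules, had one of 5.49. Slc2a2, the glucose transporter of mouse β-cells, stood at 39.6, 38.6 and 28.9 CPM in β-cells and at 0.842, 1.08 and 0.641 in non-β-cells (5.36). Ucn3, a peptide of mature β-cells, differed by 5.32, and G6pc2, the islet glucose-6-phosphatase subunit, by 3.81. Cltrn (collectrin) was the marker lower in β-cells (-1.83), and Slc30a8, the zinc transporter of insulin granules, did not pass, with 101, 99.3 and 95.9 CPM in β-cells and 124, 129 and 85.2 in non-β-cells. Without non-β-cell replicate 3 it was called lower in β-cells (-0.35, adjusted p = 0.0223). With sample quality weights it was called lower too (-0.26, adjusted p = 0.0346).

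All 10 tested α-cell markers and all 7 tested δ-, PP- and ε-cell markers were lower in β-cells, with medians of -3.91 and -3.72. The α-cell factor Irx2 stood at 7.33, 9.39 and 9.54 CPM in β-cells against 158, 158 and 177 in non-β-cells (-4.22). The related factor Irx1 differed by -4.54, and Ttr (transthyretin), which α-cells secrete, by -3.46. Ppy, the pancreatic polypeptide gene, differed by -4.85, Sst by -3.50, the δ-cell factor Hhex by -3.72 and Ghsr, the ghrelin receptor of δ-cells, by -4.29. Loxl4 and Ghrl were the 2 members not tested. Ghrl, the ghrelin gene, had 134 counts in β-cell replicate 2 and from 0 to 20 in the other 5 samples.

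Islet transcription factors were mostly lower in β-cells, with 8 of 31 higher, 21 lower and a median of -0.97. Mnx1, a factor required by β-cells, stood at 7.13, 8.24 and 9.82 CPM against 0.803, 0 and 0.444. Mafa, which activates insulin transcription in mature β-cells, stood at 174, 188 and 202 CPM against 9.41, 7.14 and 7.15 (4.56). Nkx6-1, which maintains β-cell identity, differed by 1.69 and Insm1 by 1.29. Pdx1, the β-cell factor mutated in a form of monogenic diabetes, differed by 0.81 (SE 0.12), at 50.4, 53.4 and 56.8 CPM against 29.2, 32.1 and 30.5. On the other side, Etv1 had a difference of -4.55. Neurog3, the endocrine progenitor factor, stood at 0.0509, 0.159 and 0.183 CPM in β-cells and at 4.44, 2.59 and 5.62 in non-β-cells. The pan-endocrine factors were also lower in β-cells, with -0.97 for Neurod1, -0.98 for Pax6, -1.83 for Isl1 and -0.70 for Nkx2-2. Each of these 4 had its 3 β-cell values below its 3 non-β-cell values. Pax4, a factor of β-cell development, had 0 counts in all 6 samples.

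The enzymes that cut prohormones differed in opposite directions. Pcsk1, the convertase that starts proinsulin cleavage, stood at 186, 176 and 170.3 CPM in β-cells and 12.9, 11.6 and 10.2 in non-β-cells, a difference of 3.93 (SE 0.12, adjusted p = 2.43e-10). Pcsk2, the convertase that yields glucagon from proglucagon and completes proinsulin processing, stood at 2488, 2274 and 2554 against 6767, 6515 and 7714 (-1.52, SE 0.13). Pcsk1n, an inhibitor of Pcsk1, was lower in β-cells, with a difference of -1.71. Over the granule list of 17 genes, 5 were higher and 7 lower, with a median of -0.17. Nucb2 (1.69) and Cpd, a carboxypeptidase (1.06), were higher, and Resp18 (-1.76), the peptide-amidating enzyme Pam (-1.31) and Vgf (-1.28) lower. Carboxypeptidase E (Cpe), at 3088, 3049 and 3922 CPM against 3133, 2908 and 3452, and chromogranin B (Chgb), at 1584, 1558 and 2077 against 1610.5, 1571 and 1953, did not pass.

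The vesicle docking and fusion list was divided, with 9 of 20 higher and 9 lower. Besides Sytl4, Rims3 (3.76), Doc2b (3.26), a calcium sensor of insulin release, and Syt4 (1.54) were higher in β-cells. Stxbp5l (-2.50), Cadps2 (-1.88) and Syt5 (-1.17) were lower. The SNARE protein Stx1a had a difference of -0.96, and its partner Snap25 did not pass (82.2, 86.6 and 86.4 CPM against 77.4, 78.6 and 73.0).

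Of 29 ion channels, 4 were higher and 13 lower in β-cells, with a median of -0.63. Trpm2 (1.81), a cation channel of the β-cell membrane, was higher beside Trpm5, as was Kcnq1 at low counts (0.967, 0.872 and 0.963 CPM against 0.230, 0 and 0.444). The Kcnq1 call was lost without any 1 of the samples but non-β-cell replicate 3 (adjusted p = 0.0616 to 0.129). Of the 2 subunits of the ATP-sensitive potassium channel, Kcnj11, the pore, stood at 219, 203 and 184 CPM in β-cells and 202, 197 and 204 in non-β-cells and did not pass, with a difference of 0.0022 (SE 0.11). Abcc8, the sulfonylurea receptor, stood at 901, 864 and 654 against 1275, 1339.5 and 1199, a difference of -0.67. Other channels were higher in the non-β fraction. The AMPA receptor subunit Gria2 stood at 2.80, 3.17 and 1.65 CPM against 58.6, 84.0 and 28.3 (-4.38), the sodium channel Scn3a differed by -4.13, the T-type calcium channel Cacna1h by -3.67 and the background potassium channel Kcnk3 by -3.59. Of the L-type calcium channel genes, Cacna1c (0.052) and Cacna1d (-0.12) did not pass.

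Of the 28 tested receptors 10 were higher in β-cells, 15 lower and 3 not passing. Glp1r, the incretin receptor that raises insulin secretion, stood at 554, 526 and 406 CPM in β-cells and 39.2, 31.0 and 30.5 in non-β-cells (3.87). Gcgr, the glucagon receptor, stood at 37.6, 35.4 and 42.0 against 2.91, 2.74 and 3.30 (3.68), higher in the fraction where the gene of its ligand was lower. The muscarinic receptor Chrm3 (2.52), the fatty acid receptor Ffar1 (1.70) and the adrenergic receptor Adra2a (2.08), which inhibits insulin release, were also higher. Crhr1, a receptor for corticotropin-releasing hormone, stood at 3.92, 2.42 and 2.39 CPM in β-cells and had 0 counts in every non-β-cell sample. Set against a floor of 3 counts over the group, it was at least 63.5-fold higher in β-cells, counting error only. Adrb1, the β1-adrenergic receptor, had 1 count in the β-cell samples together and 324 in the non-β-cell samples, a ratio of 323 with an exact 95% counting interval of 57.6 to 12800.4. Avpr1b, a vasopressin receptor of α-cells, differed by -4.50 and the somatostatin receptor Sstr2 by -4.13. Gipr, the receptor of the other incretin, did not pass, at 31.8, 31.7 and 29.1 CPM against 31.4, 33.5 and 29.0.

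In the list of glucose uptake and metabolism 17 of 37 genes were higher in β-cells, 8 lower and 12 did not pass, with a median of 0.34. Pcx (pyruvate carboxylase), which refills the citric acid cycle in β-cells, stood at 131, 119.5 and 107 CPM against 21.99, 17.2 and 23.5 (2.51). Slc2a1, the glucose transporter GLUT1, differed by 1.64, the glycolytic kinase Pgk1 by 1.25 and the malate shuttle enzyme Mdh1 by 0.92. Lower in β-cells were Slc2a3, the neuronal glucose transporter (-4.84), Hk1 (-4.27), a hexokinase with a high affinity for glucose, Pdk4 (-4.22), which blocks pyruvate dehydrogenase, and Ldha (-2.78), which makes lactate. For Hk1 the values were 3.97, 2.46 and 2.39 CPM in β-cells against 50.7, 53.1 and 60.2 in non-β-cells. Hk1 and Ldha also belong to the 19 genes commonly listed as disallowed in β-cells because other tissues express them and β-cells repress them. Of those 19, 11 were lower, 2 higher and 6 did not pass, with a median of -2.01. Oat (-2.79), a mitochondrial aminotransferase, Igfbp4 (-2.82) and Acot7 (-2.40) were among the lower ones, and Cat (catalase, 1.13) and C1qbp (1.34) were the 2 higher. Arhgdib had 0 counts in every β-cell sample and was at least 35.9-fold higher in non-β-cells by the same floor.

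Of the peptide genes other than insulin and glucagon, 5 of 19 were higher and 10 lower in β-cells. Npy, neuropeptide Y, stood at 21.1, 18.9 and 33.2 CPM against 3.79, 6.51 and 10.6 (1.94) and Iapp, the amyloid peptide released with insulin, at 14618, 14242 and 22837 against 2279, 2194 and 2971 (2.77). Edn3, an endothelin, stood at 2.75, 2.34 and 3.12 against 64.6, 73.2 and 64.4 (-4.63), and Pdyn, the precursor of dynorphins, differed by -1.76.

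**Figure D2:**
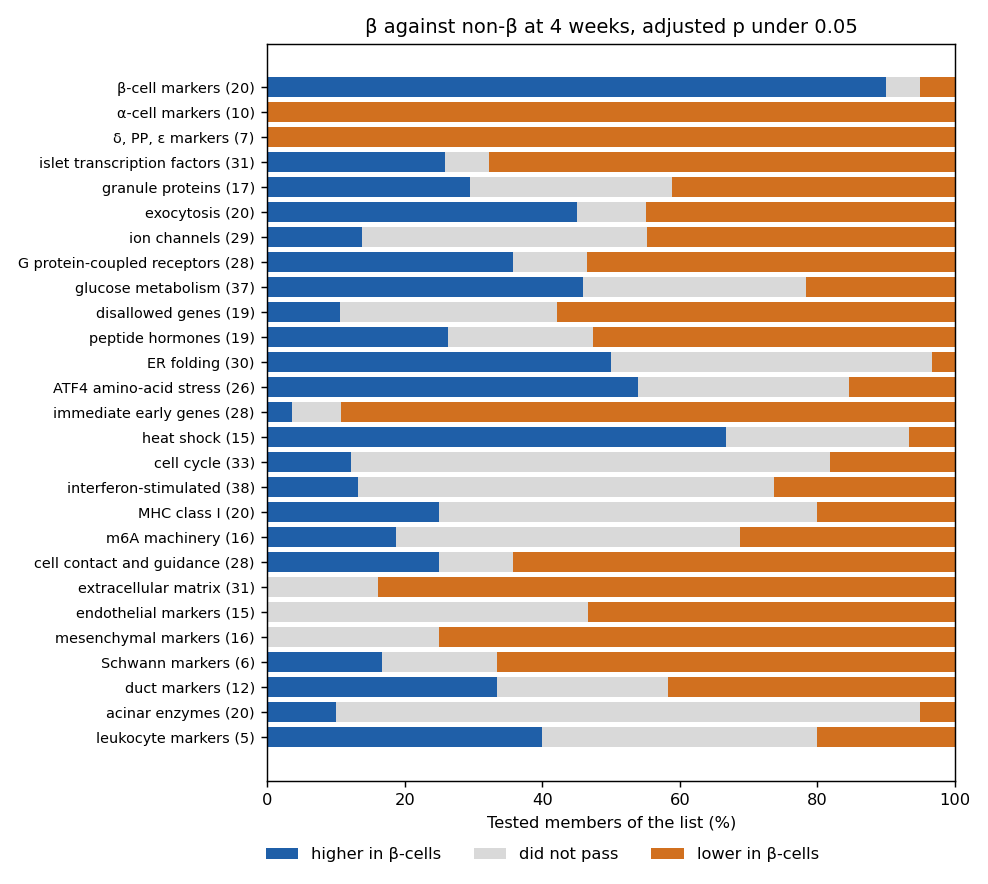
Share of the tested members of each gene list (horizontal axis, %, number tested in brackets) that were higher in β-cells, did not pass, or were lower in β-cells at 4 weeks (limma-voom, adjusted p under 0.05). β-cell markers are 18 of 20 higher and immediate early genes 25 of 28 lower.

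Immediate early genes, which cells transcribe within minutes of a stimulus, were lower in β-cells almost throughout. Of 28 genes 25 were lower in β-cells, 1 (Myc, 0.39) was higher and 2 (Ier3 and Ier5) did not pass, with a median of -3.78. Fos, a subunit of the factor AP-1, stood at 213, 265 and 246 CPM in β-cells and 3441, 3326 and 3303 in non-β-cells (-3.80, SE 0.14, adjusted p = 6.73e-10). Fosb stood at 99.7, 136 and 89.3 against 2887, 3204 and 2373 (-4.71) and Jun at 372, 429.6 and 412 against 2867, 2852 and 2729.9 (-2.80). Every non-β-cell sample lay above every β-cell sample in these 3 genes. The orphan nuclear receptors Nr4a1, Nr4a2 and Nr4a3 differed by -4.64, -5.16 and -5.45, and Egr1, Egr3 and Egr4, zinc-finger factors, by -4.16, -5.24 and -4.98. Npas4, which neurons and islet cells induce on depolarisation, stood at 22.4, 25.1 and 28.6 CPM against 623, 652 and 637 (-4.65). The summed level of the list was 2377 to 2823 CPM in β-cells and 28854 to 32406 CPM in non-β-cells. Jund, another AP-1 subunit, had a smaller difference of -0.43, whose call was lost without β-cell replicate 1 or 2 or non-β-cell replicate 3 (adjusted p = 0.0748 to 0.0946).

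The promoters of Fos and Npas4 are given because the genes of this list moved together. They are chr12:85473640-85473939 (plus strand) and chr19:4989922-4990221 (minus strand) of GRCm38.p6, with the letters TGACG, the core of the cAMP response element, in capitals on either strand.
Fos: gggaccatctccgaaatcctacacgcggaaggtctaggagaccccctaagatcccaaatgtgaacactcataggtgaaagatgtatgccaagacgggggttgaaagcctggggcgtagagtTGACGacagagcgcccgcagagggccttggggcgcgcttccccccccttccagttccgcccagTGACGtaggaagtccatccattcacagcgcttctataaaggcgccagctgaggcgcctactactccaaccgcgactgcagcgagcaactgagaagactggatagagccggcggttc
Npas4: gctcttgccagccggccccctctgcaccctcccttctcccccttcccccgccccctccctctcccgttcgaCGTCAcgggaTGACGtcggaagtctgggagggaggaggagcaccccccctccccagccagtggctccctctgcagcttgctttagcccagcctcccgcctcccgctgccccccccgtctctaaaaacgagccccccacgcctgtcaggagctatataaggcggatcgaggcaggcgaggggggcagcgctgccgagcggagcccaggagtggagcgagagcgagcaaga
TGACG occurred in the promoters of 15 of the 22 list genes with an entry and of 6228 of all 27025 genes.

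The heat shock list ran the other way. Of 15 cytosolic and mitochondrial chaperone genes and their factors, 10 were higher in β-cells, 1 (Cryab, -3.13) was lower and 4 did not pass, with a median of 1.66. Hspa1b, an inducible HSP70 gene on GRCm38 at chr17:34956436-34959238, stood at 457, 491 and 461 CPM in β-cells and 56.0, 21.5 and 51.3 in non-β-cells (3.56, SE 0.26, adjusted p = 2.29e-07). Hspa1a, its near-identical neighbour, stood at 299, 293 and 263 against 46.1, 27.4 and 49.3 (2.84), and reads of the pair may be divided between them. Hsph1, an HSP70 exchange factor, stood at 779, 788 and 786 against 126, 119 and 133 (2.64, SE 0.15). The β-cell samples of these 3 genes were tight and lay apart from all non-β-cell samples. Hsp90aa1 (2.21) and the constitutive chaperones Hsp90ab1 (1.65) and Hspa8 (1.89) were higher too, as were the mitochondrial Hspd1 (1.59) and Hspe1 (1.88). Dnajb1, Bag3, Hsf1 and Hsf2, the last 2 being the heat shock factors themselves, did not pass. Dnajb1, a target of the same response, stood at 199.8, 201 and 225 CPM in β-cells and 180.2, 144 and 203 in non-β-cells.

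The promoters of Hspa1b and Hsph1 are chr17:34959189-34959488 and chr5:149636287-149636586, both on the minus strand of GRCm38.p6. Capitals mark GAANNTTC, the inverted GAA repeat that heat shock factors recognise, which reads the same on both strands.
Hspa1b: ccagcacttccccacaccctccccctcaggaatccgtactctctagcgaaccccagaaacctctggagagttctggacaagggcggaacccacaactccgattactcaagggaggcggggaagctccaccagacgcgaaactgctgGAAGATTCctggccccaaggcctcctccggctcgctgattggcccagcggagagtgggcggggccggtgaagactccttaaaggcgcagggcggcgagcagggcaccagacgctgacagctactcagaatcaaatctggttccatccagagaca
Hsph1: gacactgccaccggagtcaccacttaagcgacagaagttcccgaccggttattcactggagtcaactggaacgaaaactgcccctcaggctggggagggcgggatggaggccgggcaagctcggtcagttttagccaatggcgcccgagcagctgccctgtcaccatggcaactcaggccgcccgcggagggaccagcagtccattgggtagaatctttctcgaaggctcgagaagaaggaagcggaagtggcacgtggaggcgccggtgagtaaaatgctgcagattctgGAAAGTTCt
The letters occurred in the promoters of 8 of the 10 list genes with an entry and of 9.04% of all genes. Bag3, which did not pass, was among the 8.

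At 8 weeks, in separate samples, 7679 genes (49.2%) differed between the fractions, 23.6% of those tested higher and 25.6% lower in β-cells. Over all genes 800 (5.13% of those tested) had a β against non-β difference that itself differed between the ages, 520 (3.33%) more positive at 4 weeks and 280 (1.80%) more negative. Of the heat shock genes 11 of 15 were among them, all more positive at 4 weeks, and the median of the list was 1.66 at 4 weeks and -0.13 at 8 weeks. At 8 weeks Hspa1b stood at 270.4, 204 and 257 CPM in β-cells and at 610.3, 637 and 745 in non-β-cells, so that its difference was 3.56 at 4 weeks and -1.45 at 8 weeks (change 5.01, adjusted p = 1.07e-05). In this gene the fraction with the higher values was not the same at the 2 ages. Hspa1a differed by 2.84 and -1.44 at the 2 ages and Hspb1, a small heat shock protein, by 2.18 and -1.49. Hsph1 differed by 2.64 at 4 weeks and by -0.086 at 8 weeks, where it did not pass. In non-β-cells Dnajb1 stood at 743, 795 and 843 CPM at 8 weeks.

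**Figure D3:**
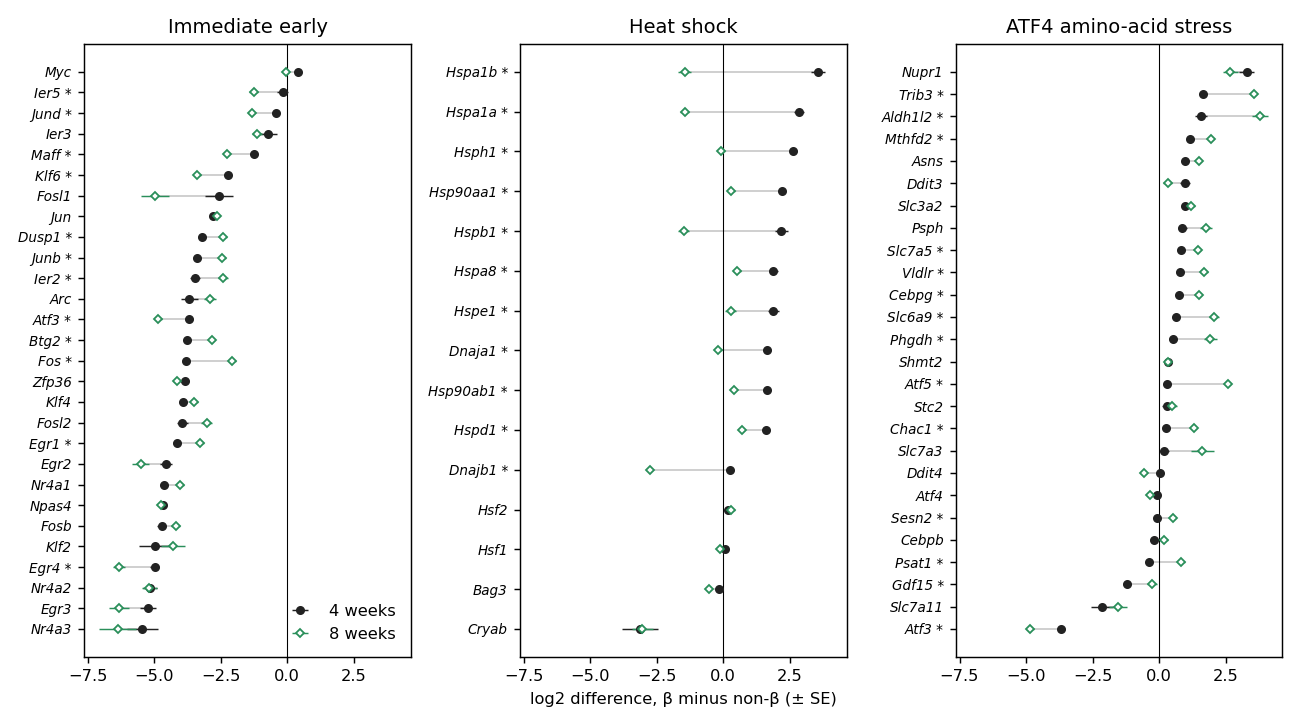
log2 difference β minus non-β (horizontal axis, ± SE from limma-voom, n = 3 against 3) of immediate early, heat shock and ATF4 amino-acid stress genes at 4 weeks (filled circles) and 8 weeks (open diamonds), with an asterisk where the 2 ages differed (adjusted p under 0.05). At 4 weeks 13 of 15 heat shock genes lie right of 0 and 27 of 28 immediate early genes left of 0.

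Genes that the factor ATF4 induces when amino acids are short or the endoplasmic reticulum (ER) is stressed were more often higher in β-cells, with 14 of 26 higher, 4 lower and a median of 0.43. Nupr1, a stress-induced chromatin protein, stood at 308, 317 and 500.0 CPM against 33.3, 31.8 and 48.7 (3.30, SE 0.28), Trib3, a pseudokinase, at 553, 504 and 660.3 against 175, 163 and 208 (1.65) and Asns, asparagine synthetase, at 404, 359 and 484 against 202, 187 and 242 (0.98). Aldh1l2 (1.59) and Mthfd2 (1.15), of mitochondrial folate metabolism, and Ddit3, the factor CHOP (0.97), were also higher. Atf3 (-3.68), which is also an immediate early gene, Slc7a11 (-2.15), the cystine transporter, Gdf15 (-1.20) and Psat1 (-0.38) were lower, and Atf4 itself did not pass (899, 879.8 and 1228 CPM against 988, 1000.5 and 1160.0). In this list 14 genes differed between the ages, 13 of them less positive at 4 weeks, and the median at 8 weeks was 1.37. Trib3 differed by 1.65 at 4 weeks and by 3.55 at 8 weeks, when it stood at 358, 401 and 363 CPM in β-cells and 32.5, 30.0 and 32.5 in non-β-cells. Atf5 differed by 0.30, not passing, at 4 weeks and by 2.59 at 8 weeks.

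The promoters of Trib3 and Asns are chr2:152344011-152344310 and chr6:7693160-7693459, both on the minus strand of GRCm38.p6, with TGATGNAA, the composite element of C/EBP and ATF factors, in capitals on either strand.
Trib3: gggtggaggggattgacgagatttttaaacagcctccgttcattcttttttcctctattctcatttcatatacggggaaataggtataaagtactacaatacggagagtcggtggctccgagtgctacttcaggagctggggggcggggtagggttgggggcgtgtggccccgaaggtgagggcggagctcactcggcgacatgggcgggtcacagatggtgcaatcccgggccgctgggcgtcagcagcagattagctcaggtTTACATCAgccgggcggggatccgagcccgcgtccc
Asns: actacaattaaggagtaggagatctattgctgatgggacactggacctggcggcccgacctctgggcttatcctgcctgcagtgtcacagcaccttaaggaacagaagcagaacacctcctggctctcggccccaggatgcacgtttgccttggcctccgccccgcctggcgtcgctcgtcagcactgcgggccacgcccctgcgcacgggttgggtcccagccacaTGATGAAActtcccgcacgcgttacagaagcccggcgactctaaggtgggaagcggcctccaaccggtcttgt
These letters occurred in the promoters of 8 of the 24 list genes with an entry and of 4.51% of all genes. Atf3 and Slc7a11, both lower in β-cells, were among the 8, as was Fgf21, which was not tested.

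Of 30 genes of ER folding and the unfolded protein response, 15 were higher in β-cells, 1 (Dnajc3, -0.35) was lower and 14 did not pass, with a median of 0.34. Ero1b, the oxidase of insulin-producing cells, stood at 697, 705 and 697 CPM against 140.3, 148 and 128 (2.33, SE 0.085). Edem1 (2.28), of ER-associated degradation, Ero1a (1.97), Wfs1 (1.497), the gene of Wolfram syndrome, and Sel1l (1.25) followed. Derl3, at 10.4, 7.69 and 9.40 CPM against 1.64, 2.20 and 0.740, had the largest fitted difference (2.65) at low counts. Hspa5, the ER chaperone BiP, differed by 0.70, at 2685, 2489.8 and 3388 CPM against 1667, 1664 and 1905, and Xbp1 did not pass (319, 305 and 355 against 321, 295 and 345).

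For genes that bear on autoimmunity the counts stand beside 24.9% of all genes higher and 23.7% lower, shares close to several of those below. Of 38 interferon-stimulated genes 5 were higher, 10 lower and 23 did not pass (median -0.25). Oasl2 was higher (6.41, 5.47 and 5.83 CPM against 0.383, 0.734 and 0.493), and the factor Irf1 (-0.88) and the RNA sensor Ifih1 (-2.15) were lower in β-cells. Of 20 genes of MHC class I presentation 5 were higher, 4 lower and 11 did not pass (median 0.05). H2-K1 stood at 131, 114 and 163 CPM in β-cells and 121, 120.3 and 158 in non-β-cells, with a difference of 0.026 (SE 0.14) at 4 weeks and of -1.05 at 8 weeks, a change of 1.08 (adjusted p = 0.00608). B2m, the shared light chain, differed by -0.66 at 4 weeks, H2-Q7 by -1.82 and Tapbp by 0.63, with the H2-Q genes uncertain because their copies share reads. Of the 16 tested genes of the m6A machinery, which writes, removes and reads N6-methyladenosine in RNA and is the subject of the study, 3 were higher, 5 lower and 8 did not pass, a share of called genes near the 48.5% of all genes tested. Mettl3, the methyltransferase, stood at 32.8, 31.6 and 34.6 CPM against 28.2, 36.7 and 35.3 (difference -0.0025, SE 0.12) and Mettl14, its partner, at 13.3, 14.4 and 15.1 against 14.5, 11.0 and 13.0 (0.15, SE 0.17), and neither passed. Wtap, the adaptor of the complex, was higher by 0.38 (SE 0.12). That call was lost without β-cell replicate 3 (0.25, adjusted p = 0.06) or non-β-cell replicate 2 (0.33, adjusted p = 0.0689). It was also lost by limma-voom with sample quality weights (0.22, adjusted p = 0.0534) and in a fit of the 6 samples of 4 weeks (0.38, adjusted p = 0.0733). The number of lower genes in this list was 3 without β-cell replicate 3 or non-β-cell replicate 2 and 1 without non-β-cell replicate 1. The number of higher genes was 1 without non-β-cell replicate 2, and a fit of the 6 samples of 4 weeks called 1 higher and 1 lower.

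Of 33 cell cycle genes 23 did not pass, 4 were higher and 6 lower. Mki67, a marker of proliferation, stood at 13.996, 11.1 and 6.47 CPM against 7.73, 10.3 and 2.96 and did not pass. Ccnd1 (-1.05) and the inhibitors Cdkn1a (-0.64) and Cdkn1b (-0.44) were lower in β-cells, and Ccnd3 (0.66) and the replication helicase subunit Mcm7 (0.63) higher.

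Cell contact and guidance molecules differed in 25 of 28 genes, 7 higher and 18 lower. Robo1, a receptor for Slit ligands, stood at 220.5, 239.8 and 107 CPM in β-cells against 25.5, 27.9 and 13.6 in non-β-cells (3.05), while Robo2 had a difference of -0.69 whose call was lost without β-cell replicate 3 or non-β-cell replicate 1 or 2 (adjusted p = 0.132 to 0.149). Both were lowest in replicate 3 of each fraction. Gjd2, the connexin that couples β-cells electrically, differed by 2.24, Nrcam by 1.86 and E-cadherin (Cdh1) by 1.03. Nrp1 (-5.05) and Ephb2 (-2.83) were among the lower ones.

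Markers of cells other than endocrine cells differed between the gates. Endothelial markers summed to 8.24 to 17.8 CPM in β-cells and 72.9 to 130 CPM in non-β-cells, and 8 of 15 were lower in β-cells with 7 not passing. By edgeR's quasi-likelihood test 15 of 15 were lower, and by limma-voom without β-cell replicate 1, 2 or 3 the count was 3, 4 and 4. Cdh5, the endothelial cadherin, stood at 0.458, 0 and 1.06 against 12.4, 8.46 and 15.2 CPM (difference -5.90). Without β-cell replicate 1 or 3 the Cdh5 difference was -6.49 and -7.09 and did not pass (adjusted p = 0.0668 and 0.108). Pericyte and fibroblast markers summed to 6.74 to 17.8 against 117 to 336 CPM, with 12 of 16 lower, or 6 without β-cell replicate 2 or without β-cell replicate 3. Among 31 collagen and basement membrane genes 26 were lower in β-cells and 5 did not pass. Col4a2 stood at 2.54, 1.43 and 2.57 against 79.5, 60.0 and 132 CPM (-5.37) and Col3a1 at 2.49, 0.238 and 2.48 against 47.5, 36.2 and 96.7, with non-β-cell replicate 3 the highest in both. How far these cells account for other genes lower in the β fraction was not tested. Of 6 tested Schwann cell markers 4 were lower in β-cells, 1 was higher and 1 did not pass. The higher one lost its call under several alternatives. Sums of this list overlapped, at 139 to 197 CPM in β-cells and 148 to 164 CPM in non-β-cells. The Schwann cell factor Sox10 had 0 counts in all β-cell samples and 0.0765, 1.57 and 0.937 CPM in non-β-cells, at least 17.6-fold lower in β-cells by the same floor of 3 counts over the group and called with all samples (adjusted p = 0.0384). That call, not its direction, was lost without any 1 of the samples but non-β-cell replicate 1 (adjusted p = 0.0646 to 0.111).

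Acinar enzymes were low in both fractions and varied between libraries, with sums of 336, 153 and 282 CPM in β-cells and 98.7, 61.3 and 170 CPM in non-β-cells. Of 20 enzymes 18 had a positive difference, and by limma-voom Ctrb1, at 70.3, 35.4 and 60.6 against 11.3, 1.47 and 19.4 CPM, and Zg16 were called higher and 1 was lower. The number called higher depended on the test and the samples. It was 13 by edgeR's quasi-likelihood test, 12 by DESeq2, 16 with a replicate block, 9 in a fit of the 6 samples of 4 weeks, 7 with sample quality weights and 1 without non-β-cell replicate 1. Duct markers were divided. The keratins Krt7 (1.72), Krt8 (0.61), Krt18 (0.79) and Krt19 (2.89), of which Krt7 stood at 804, 749 and 1016 CPM in β-cells, were higher, and the duct factor Sox9, at 0.204, 0.0396 and 0.229 against 5.43, 4.99 and 5.67 CPM, Tspan8 (-3.97) and Spp1 (-1.92) were lower. Of the leukocyte list 5 of 21 genes could be tested. Ptprc, which encodes the CD45 used to exclude leukocytes, had 0, 1 and 0 counts in β-cells and 15, 0 and 16 in non-β-cells. Cd68, a lysosomal protein of macrophages, was higher in β-cells (47.5, 48.6 and 50.1 against 9.03, 7.68 and 10.7 CPM) and C1qa lower (-1.78). Of the same list, C1qb and C1qc had at most 1 count in any of the 6 samples. Csf1r, Adgre1 and Tyrobp, other macrophage genes, had at most 18. No red blood cell marker was tested.

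**Figure D4:**
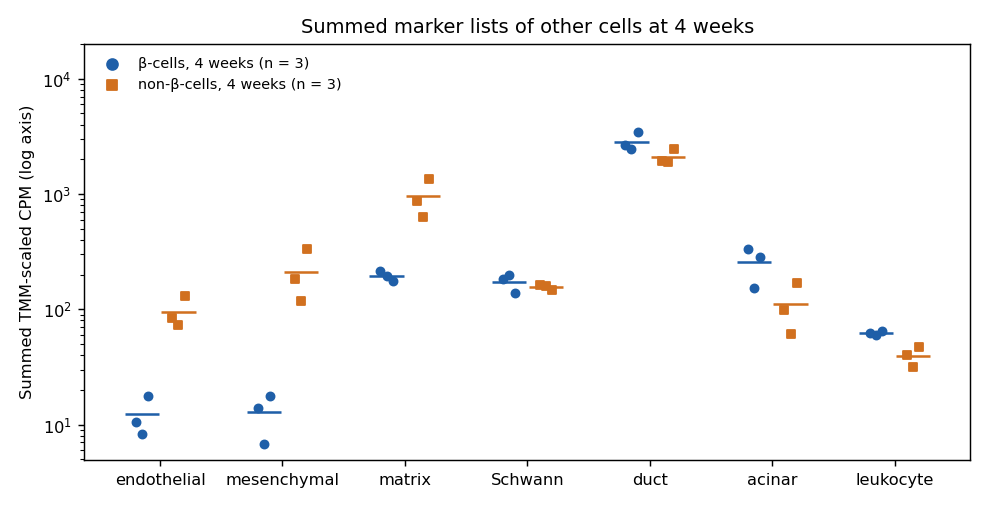
Summed TMM-scaled CPM (log axis) of the marker lists of other cells in each 4-week sample, with β-cells as circles, non-β-cells as squares and means as lines (n = 3 each). Endothelial, mesenchymal and matrix sums are higher in every non-β-cell sample and acinar sums overlap.

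Beyond the lists, the 12 genes with the largest difference on each side, among those at a mean log2 CPM of at least 3, were chosen by rule. Higher in β-cells were Tmem215 (6.24), Ins2, St8sia1 (5.56), a ganglioside sialyltransferase, Car15 (5.54), a carbonic anhydrase, Sytl4, Prss53 (5.44), a serine protease, Ins1, Msln (mesothelin, 5.37), Ucn3, the prolactin receptor Prlr (5.16), Fam151a (5.09) and Gad1 (5.07), which makes GABA. Tmem215 stood at 73.0, 70.2 and 72.2 CPM in β-cells and 1.87, 0.0489 and 5.23 in non-β-cells, where replicate 2 was almost at 0, and Prlr at 58.2, 66.0 and 33.8 against 2.68, 0.587 and 1.43. Gad1 stood at 126, 129.7 and 119 against 4.90, 3.28 and 2.91. On the other side the 12 included 6 immediate early genes (Nr4a3, Egr3, Nr4a2, Egr4, Fosb and Npas4), the collagens Col3a1 and Col4a2, Ppy, the sorting receptor Sorcs2 (-4.88) and Ndst4 (-4.74), a heparan sulfate enzyme. Sorcs2 stood at 2.90, 1.82 and 2.34 CPM in β-cells and 76.5, 63.8 and 61.9 in non-β-cells.

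Some identity genes had a difference that changed with age. These were 3 of 20 β-cell markers, 1 of 10 α-cell markers and 5 of 31 islet transcription factors. For the β-cell markers and the islet transcription factors this is a larger share than the 5.13% of all genes tested, though the counts are small. The α-cell share rests on 1 gene, Gcg, too few to compare. Gcg differed by -4.01 at 4 weeks and by -5.98 at 8 weeks (change 1.97, adjusted p = 0.00173). At 8 weeks it stood at 2443, 1413 and 2113 CPM in β-cells, below all 3 values at 4 weeks, and at 110925, 125124 and 132644 in non-β-cells. Nkx6-1 differed by 1.69 and 2.91 (change -1.21, adjusted p = 6.79e-04) and Pdx1 by 0.81 and 1.63. Non-β-cells held 86.7, 83.7 and 73.9 CPM of Nkx6-1 at 4 weeks and 36.9, 45.5 and 38.5 at 8 weeks. Neurod1 was lower in β-cells at 4 weeks (-0.97) and did not pass at 8 weeks (0.22, change -1.19), and Pax6 likewise (-0.98 and -0.16). By rule the genes with the largest change were Hspa1b, Col5a3 (4.47), Hspa1a, Ptpn14 (4.16), Neurl3 (3.89) and Ltbp2 (3.75) in the positive direction, and Hist1h1d (-3.20), Angptl6 (-2.87), Neat1 (-2.62), Hist1h1e (-2.30), Atf5 (-2.30) and Arl4d (-2.28) in the negative. Ptpn14, a phosphatase, was higher in β-cells at 4 weeks (54.1, 54.1 and 42.2 CPM against 18.2, 22.3 and 17.6) and lower at 8 weeks (3.84, 2.75 and 4.97 against 32.8, 25.6 and 19.7). Neat1, a nuclear RNA, stood at 139, 128 and 122 CPM in β-cells at 4 weeks against 459, 586 and 409 in non-β-cells, and at 466, 432 and 509.7 against 376, 280.4 and 211 at 8 weeks. For Col5a3 and Ltbp2 the 4-week fractions overlapped, and at 8 weeks non-β-cells stood at 86.6, 108 and 125 CPM of Col5a3 and 92.0, 77.6 and 71.8 CPM of Ltbp2.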

How the data were processed

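Total RNA of sorted β- and non-β-cells was sequenced with a strand-specific low-input total RNA kit in 12 samples, 3 for each fraction and age, grouped by their labels. The authors deposited estimated counts per gene, not normalised, for which the submitters' processing notes name fastp (read trimming) and kallisto (pseudoalignment). Per the study's methods transcript counts were summed to genes with tximport. Software versions are not given in the sources used here. Between 14.0 and 19.3% of a sample's values were not whole, and all were rounded. Gene symbols from the GENCODE table matched 51916 of 52962 identifiers.

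Genes with over 1 CPM in at least 3 samples (15598) were scaled by TMM (edgeR 4.0.16) and fitted with limma-voom (limma 3.58.1, R 4.3.3) over all 12 samples with 1 mean per group, Benjamini-Hochberg adjusted over all of these genes. Level filters used log2 CPM with a prior count of 2. Promoter sequences and motif counts are from RefSeq (GRCm38.p6), as 300-base windows.

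Alternatives were DESeq2 1.42.0 and the quasi-likelihood test of edgeR, other scalings, filters, weights and thresholds, a replicate block, and leaving out samples. Scripts were tested on simulated data. Examples in a list were its defining members and those with the largest differences. The 12 genes a direction (mean log2 CPM of at least 3, no overlap) and the 6 a direction for the change with age followed a fixed rule. Members, lists and rules were chosen with earlier results of these data known. Genes that share reads with a near-identical copy are uncertain, intervals and floors cover counting error only, and sequences are printed only where the table used has an entry. Some genes chosen by these rules are not reported here.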

Additional observations from a re-analysis of the deposited data

Results flagged for a closer look

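The β against non-β difference at 4 weeks differed from that at 8 weeks in 800 of 15598 genes (interaction term of limma-voom, Benjamini-Hochberg adjusted p under 0.05), and 61 of them are named above. Values below are the log2 difference at 4 weeks minus that at 8 weeks, so a positive value means a difference more in favour of β-cells at 4 weeks. The ages were separate sets of samples, so the age of the mice and the preparation of the samples cannot be told apart. Only the total of such genes, not the change of each single gene, was checked under the alternatives given below.

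Among heat shock genes the change was 5.01 for Hspa1b, 4.28 for Hspa1a, 3.67 for Hspb1, 3.03 for Dnajb1, 2.73 for Hsph1, 1.90 for Hsp90aa1, 1.59 for Hspe1, 1.36 for Hspa8, 1.26 for Hsp90ab1 and 0.88 for Hspd1. Among genes of the ER it was 2.58 for Derl3, 0.70 for Hspa5 and -0.68 for Dnajc3. Among ATF4 targets it was -2.30 for Atf5, -2.20 for Aldh1l2, -1.91 for Trib3, -1.19 for Psat1, -0.93 for Gdf15, -0.80 for Mthfd2 and 1.18 for Atf3. Immediate early genes had no common sign, with 1.33 for Egr4, 0.91 for Jund, -0.87 for Egr1 and -1.73 for Fos.

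Among hormone, processing and peptide genes the change was 1.97 for Gcg, -1.76 for Pdyn, -0.997 for Pam and -0.97 for Vgf. Each of the islet transcription factors named here had a negative change, with -1.21 for Nkx6-1, -1.19 for Neurod1, -0.82 for Pdx1, -0.82 for Pax6 and -0.73 for Isl1. Channels, receptors, junction and exocytosis genes had 4.29 for Kcnq1, 1.18 for Kcnk3, 1.44 for Doc2b, -1.15 for Syt5, -0.76 for Gjd2 and -0.60 for Gipr. Kcnq1 and Derl3 were at low counts at 4 weeks, and their changes lay near the threshold (adjusted p = 0.0438 and 0.0425). Metabolic and disallowed genes had 1.61 for Pdk4 and 1.402 for Igfbp4. Against 5.13% of all genes, 5 of 38 interferon-stimulated and 6 of 20 MHC class I genes changed, each in the positive direction, among them 2.71 for Oasl2, 1.73 for Irf1, 1.42 for H2-Q7, 1.08 for H2-K1 and 0.68 for Tapbp, as did 3 of 33 cell cycle genes, among them 1.21 for Mcm7 and 0.74 for Ccnd3, and 3 keratins, with 3.92 for Krt19, 1.79 for Krt8 and 1.59 for Krt18, whereas Spp1 had -1.17. The genes with the largest change had 4.47 for Col5a3, 4.16 for Ptpn14, 3.89 for Neurl3, 3.75 for Ltbp2, -3.20 for Hist1h1d, -2.87 for Angptl6, -2.62 for Neat1, -2.30 for Hist1h1e and -2.28 for Arl4d.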

How the results depend on the processing

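The number of genes that differed at 4 weeks was 7570 and lay between 5926 (only the 6 samples of 4 weeks) and 8977 (replicate block within age) under the other tests, scalings, filters and samples. It was 7619 by edgeR, 8106 by DESeq2 and 6454 to 7806 with 1 sample left out. Asking also for a 2-fold difference left 3464. The number whose difference changed with age was 800, 916 by edgeR, 1562 by the DESeq2 test, 2384 with sample quality weights, 1944 with the replicate block, 1455 without both 4-week samples numbered 3, 1246 at an adjusted p under 0.10 and 469 with a 2-fold change. With 1 sample left out it lay between 500 and 984, at 500 without non-β-cell replicate 1. The cause of these shifts was not tested. Ins1 (5.12 to 5.58), Ins2 (5.58 to 6.01) and Gcg (-4.22 to -3.85) kept direction and call under every alternative run on them. Of the 182 genes named with a difference, 163 were called, and 155 of these kept the call under every alternative. None of the 182 that was called changed sign. Psat1 lost its call without β-cell replicate 1 or 2 or non-β-cell replicate 1, and Ctrb1 without both samples numbered 3. Mki67 was called higher without β-cell replicate 3 (0.96, adjusted p = 0.0355) and with sample quality weights (0.73, adjusted p = 0.0199). Col5a3, Dnajb1 and Atf5 were called higher without non-β-cell replicate 3, with the replicate block and without both samples numbered 3. Col5a3 and Atf5 were also called with sample quality weights. Atf5 was called as well by the DESeq2 test (0.29, adjusted p = 0.0378), with total counts only and with either other filter. No scaling moved the median of all genes by over 0.1. The replicate numbers were not taken as pairs, since the labels do not say what a number marks. Deviations of same-numbered 4-week samples from their group means correlated at 0.0797, 0.133 and 0.306. Their mean was 0.173. For samples of different number the mean was -0.0854, which is no separate comparison. Deviations within a group cancel, so the first mean largely fixes the second. β-cell replicates 2 and 3 correlated best with their own number, and β-cell replicate 1 with non-β-cell replicate 2 (0.0967). Whether the numbers mark pairs was not tested. With the replicate block 8977 genes were called. With 3 samples a group, small differences and genes of a few counts are the least certain.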
